A study of Mus musculus with 6 samples.

Results

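Selectins and the adhesion molecules of blood vessel walls were examined in mouse KP cells that carried an inducible hairpin RNA against Npm1, the gene of the nucleolar protein nucleophosmin. The genes were P-selectin (Selp) and 9 others listed for their function: E-selectin (Sele), the P-selectin ligand PSGL-1 (Selplg), Icam1, Icam2, Vcam1, Pecam1, VE-cadherin (Cdh5), von Willebrand factor (Vwf) and the VEGF receptor VEGFR2 (Kdr). All 10 were found among the 48526 gene identifiers of the files. Selp was chosen by its lower count with doxycycline in these libraries, so its difference is described here with no test. The others were added to see whether they differed with it.

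KP is the only name that the labels give for the cell type. The vector was pLKO.1-Tet on, which makes its hairpin when doxycycline, a tetracycline antibiotic, is added, and puromycin selection had given 3 stable lines with the hairpins shNpm1-3, shNpm1-4 and shNpm1-5, called line 3, line 4 and line 5 here. The control group was these 3 lines without doxycycline, and the knockdown group was the same 3 lines with 100 ng/ml doxycycline, with 1 library of total RNA per line and condition. The labels do not give the time of treatment. An effect of doxycycline itself and one of the hairpin cannot be told apart here, since every treated library is of a hairpin line. The lines served as replicates, so p-values set a difference against the spread between lines, and no label says that a line was cultured more than once.

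Counts in genes numbered 24391198 to 27341036 per library, and 14531 genes had enough of them to be tested. Npm1 itself stood at 2002, 1851 and 1924 CPM (its counts scaled to the library total in genes, adjusted by TMM) in the untreated lines 3, 4 and 5, and at 67.8, 244.7 and 399.7 CPM in the treated ones. Of the 7 epithelial markers examined, all passed the filter on low counts, and their summed level was 10120 to 12110 CPM without and 8899 to 10610 CPM with doxycycline. Markers of blood cells were also present. Summed over 12 T lymphocyte markers the untreated libraries held 19.3 to 25.7 CPM and the treated ones 4.94 to 8.74 CPM. Most of the treated sum came from Lck, Trac and Il7r. The macrophage marker Adgre1 had 2 counts in all without doxycycline and 845 with it.

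Selectins are lectins that let white blood cells roll along a vessel wall. P-selectin is stored in endothelial cells and platelets and E-selectin is made by endothelium after cytokine stimulation, while PSGL-1 on leukocytes is the main ligand of P-selectin. Firm adhesion then uses leukocyte integrins, which bind ICAM-1, ICAM-2 and VCAM-1, and PECAM-1 and VE-cadherin lie at the junctions between endothelial cells. Von Willebrand factor is kept in the same endothelial granules as P-selectin, and VEGFR2 is the main signalling receptor for VEGF-A in endothelium. ICAM-1 and VCAM-1 are also made by many cells that are not endothelial.

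The bases just before the start of transcription are shown for Selp, the gene with the lower level, for Sele, its relative on the same chromosome, and for Icam1, a member with a similar number of counts that was not lower. RefSeq promoter sequences of GRCm38.p6 were found for 4 of the 10 genes (these 3 and Kdr), and the 250 bases before the RefSeq start are printed 5′ to 3′ on the strand of the gene, which is the plus strand for all 3. Capitals mark matches, on either strand, to 1 of 5 motifs known from genes of this kind. The TATA box was searched as TATAAA. Sites of GATA family factors, which act in blood and endothelial cells, were searched as AGATAA. The letters CAGGAAG stood for ETS family factors, which act on many endothelial genes. For KLF family factors the search used GGGTGTG. The inflammatory factor NF-kappaB was searched as GGNNTTTCC.
Selp chr1:164115014-164115263: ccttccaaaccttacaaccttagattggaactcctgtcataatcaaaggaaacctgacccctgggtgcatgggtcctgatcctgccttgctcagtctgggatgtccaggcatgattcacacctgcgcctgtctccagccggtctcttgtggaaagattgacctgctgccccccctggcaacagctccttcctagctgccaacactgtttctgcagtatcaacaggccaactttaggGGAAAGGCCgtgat
Sele chr1:164047984-164048233: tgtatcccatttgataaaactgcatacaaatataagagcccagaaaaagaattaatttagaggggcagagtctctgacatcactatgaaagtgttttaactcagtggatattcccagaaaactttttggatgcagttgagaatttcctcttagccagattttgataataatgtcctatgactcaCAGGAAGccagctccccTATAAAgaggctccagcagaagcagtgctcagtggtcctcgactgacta
Icam1 chr9:21015690-21015939: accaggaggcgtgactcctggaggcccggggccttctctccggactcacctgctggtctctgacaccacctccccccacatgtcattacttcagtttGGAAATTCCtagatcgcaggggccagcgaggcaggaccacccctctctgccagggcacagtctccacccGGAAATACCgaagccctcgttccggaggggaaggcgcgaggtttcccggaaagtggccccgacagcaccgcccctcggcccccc

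The Selp window held 1 match, to the NF-kappaB letters, which began 14 bases before the start and lay on the minus strand. Icam1 held 2 matches to the same letters, which began 153 and 84 bases before its start, and such a match was found in 4.93% of 32851 windows of the same length. Sele held a TATA box match, found in 12.4% of all windows, and an ETS match, found in 10.8%. Matches to the GATA and KLF letters, present in 9.99% and 6.93% of all windows, were found in none of the 4 members' windows, and Kdr held no match to any of the 5 motifs. A match describes the letters alone, and a window without one says nothing of the factor.

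Selp (ENSMUSG00000026580; mm10 chromosome 1, 164115264 to 164150026, plus strand, 16 exons in its longest coding transcript) was lower with doxycycline in every line. Lines 3, 4 and 5 were at 23.9, 21.5 and 18.4 CPM without doxycycline and at 4.21, 3.93 and 9.302 CPM with it. The untreated libraries lay close together and above all 3 treated ones, and among the treated libraries line 5 stood above the other two. The means were 21.3 ± 2.77 CPM and 5.82 ± 3.02 CPM (SD, n = 3 each), a fitted log2 fold change of -1.87 (SE 0.30). Without the treated library of line 5 the log2 fold change was -2.39, and without both libraries of that line -2.49. In these bulk libraries fewer cells with Selp RNA and less of it per cell cannot be told apart.

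Within the lines, 17.6% of the Selp level remained in line 3 (95% exact counting interval 14.0% to 21.9%, from 622 and 92 counts) and 18.3% in line 4 (14.9% to 22.4%, from 548 and 119 counts). In line 5, 50.5% remained (43.1% to 59.02%, from 480 and 243 counts). The intervals of lines 3 and 4 overlap, and that of line 5 lies above both. Of Npm1, 3.39%, 13.2% and 20.8% remained in lines 3, 4 and 5. Whether the line changed the effect of doxycycline could not be tested with 1 library per line and condition, and these intervals cover counting error only.

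Of the exonic bases of Selp, 14.1% are shared with the antisense gene Gm16587 and the long noncoding RNA gene Gm16548, both on the minus strand. These genes had 0 to 3 and 0 to 8 counts per library. Whether counting used strand is not given in the sources used here.

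**Figure D1:**
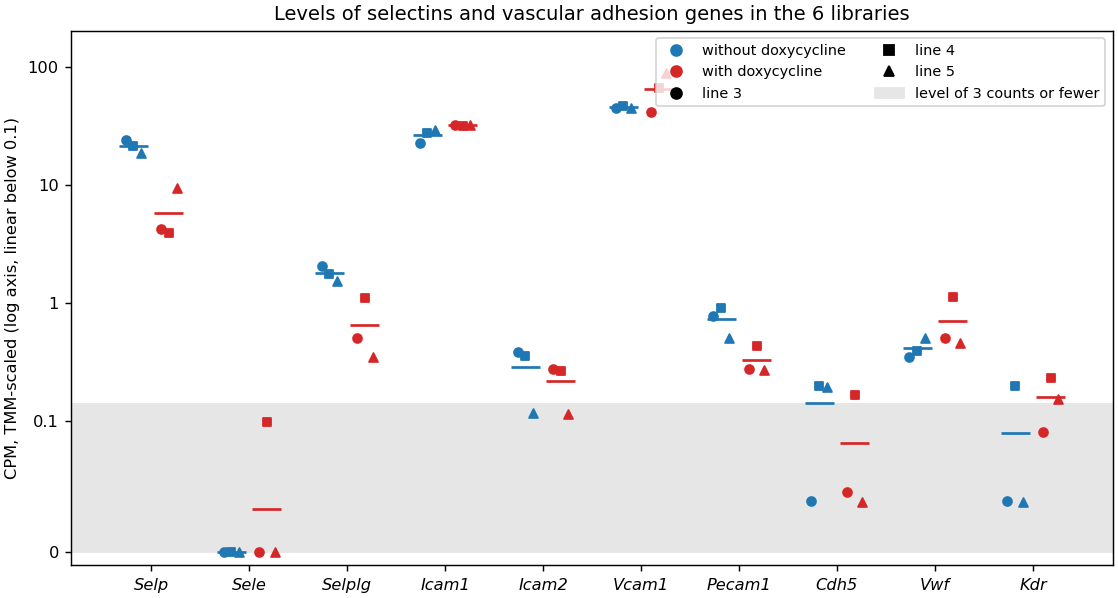
Level of each gene in the 6 libraries, in CPM on a log axis that is linear below 0.1. Points are libraries (blue without, red with doxycycline, with a marker for each line), bars are group means and the grey band marks levels at which a library held 3 counts or fewer. Selp stands at 18.4 to 23.9 CPM without and 3.93 to 9.302 CPM with doxycycline, while 6 of the 10 genes average under 1 CPM.

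The other endothelial selectin was near absent. Sele (ENSMUSG00000026582; chromosome 1, 164048234 to 164057677) had 0 counts in 5 of the 6 libraries and 3 counts in line 4 with doxycycline, which is the floor used here, so no fold is given. Selplg (ENSMUSG00000048163; chromosome 5, 113818536 to 113832644), the ligand of P-selectin on leukocytes, was at 2.04, 1.76 and 1.54 CPM in lines 3, 4 and 5 without doxycycline and at 0.504, 1.09 and 0.344 CPM with it. The groups did not overlap, which held in this direction for 11.2% of all genes tested, and line 4 was the highest of the treated libraries. Selplg did not pass (edgeR log2 change -1.43 with SE 0.42, adjusted p = 0.123). Without the treated library of line 4 it did (log2 fold change -2.07, adjusted p = 0.0266), and also with no filter on low counts (adjusted p = 0.00857). T lymphocyte genes, whose levels are given above, differed between the same groups, and their part in the Selplg level was not tested.

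Icam1 and Vcam1, the ligands of leukocyte integrins, were the most abundant members per length, and both were on the higher side with doxycycline. Icam1 (ENSMUSG00000037405; chromosome 9, 21015985 to 21028817) was at 22.7, 27.3 and 28.9 CPM in lines 3, 4 and 5 without doxycycline and at 32.4, 31.4 and 32.3 CPM with it. The groups did not overlap, which held in this direction for 11.3% of all genes tested, but the difference did not pass (edgeR log2 change 0.29 with SE 0.14, adjusted p = 0.337). Its untreated libraries spread more than its treated ones, and 11.7% of its exonic bases are shared with an antisense gene that has no row in the files.

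Vcam1 (ENSMUSG00000027962; chromosome 3, 116109949 to 116129688) was at 44.7, 46.3 and 45.1 CPM in lines 3, 4 and 5 without doxycycline and at 41.2, 66.1 and 88.7 CPM with it. The untreated libraries were nearly equal, while the treated ones spread widely, with line 3 below and lines 4 and 5 above every untreated library. Within the lines the ratio of the level with to that without doxycycline was 0.923 (95% exact counting interval 0.845 to 1.01), 1.43 (1.33 to 1.53) and 1.97 (1.83 to 2.11). Over the 3 lines Vcam1 did not pass (edgeR log2 change 0.53 with SE 0.23, adjusted p = 0.285). It passed without the treated library of line 3 (log2 fold change 0.77, adjusted p = 0.00567), without both libraries of line 3 (adjusted p = 0.0419) and with no filter on low counts (adjusted p = 0.0397). Icam2 (ENSMUSG00000001029; chromosome 11, 106377656 to 106388075), the constitutive ICAM of endothelium, had 10, 9 and 3 counts without doxycycline and 6, 8 and 3 with it, too few to be tested, with a ratio of 0.766 (95% exact counting interval 0.382 to 1.51).

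**Figure D2:**
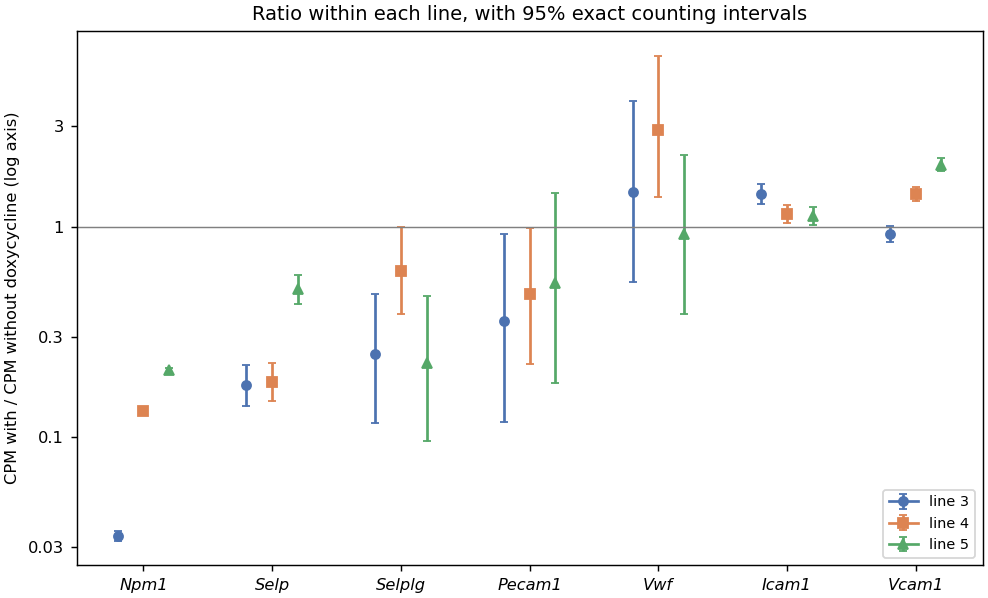
Ratio of the CPM with to the CPM without doxycycline in lines 3, 4 and 5, on a log axis, for Npm1 and the 6 genes with enough counts to be tested, with 95% exact counting intervals as bars. Selp lies below 1 in all 3 lines (0.176, 0.183 and 0.505), Icam1 above 1, and Vcam1 goes from 0.923 in line 3 to 1.97 in line 5.

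The genes that define endothelial cells were low in both groups. Pecam1 (ENSMUSG00000020717; chromosome 11, 106654217 to 106750628) had untreated levels of 0.77, 0.901 and 0.499 CPM and treated levels of 0.275, 0.429 and 0.268 CPM in lines 3, 4 and 5. Its groups did not overlap, which held in this direction for 11.2% of all genes tested. At 6 to 23 counts per library the difference did not pass (edgeR log2 change -1.13 with SE 0.41, adjusted p = 0.206). Vwf (ENSMUSG00000001930; chromosome 6, 125546774 to 125686679) had untreated levels of 0.346, 0.392 and 0.499 CPM and treated levels of 0.504, 1.12 and 0.459 CPM, with overlapping groups and line 4 the highest (edgeR log2 change 0.77 with SE 0.45, adjusted p = 0.438). Cdh5 (ENSMUSG00000031871; chromosome 8, 104101625 to 104144511) had 11 counts over the 3 untreated and 7 over the 3 treated libraries. Kdr (ENSMUSG00000062960; chromosome 5, 75932827 to 75978458) had 7 and 13. Over the 3 lines together, the 95% exact counting intervals of the ratios of Cdh5 (0.207 to 1.78) and Kdr (0.682 to 5.45) spanned 1, so no difference was detectable at this depth. Those of Pecam1 (0.277 to 0.745) and Vwf (1.12 to 2.81) did not, though they cover counting error only, and neither gene passed in edgeR, which also counts the spread between lines.

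Of the 10 genes, 6 passed the filter on low counts and 4 (Sele, Icam2, Cdh5 and Kdr) did not. Of the 5 tested besides Selp, 0 were called by edgeR (adjusted p under 0.05) and 0 by DESeq2, and 3 (Selplg, Pecam1 and Vcam1) had an unadjusted edgeR p under 0.05, as 16.3% of all genes tested had. Over all genes tested 2.28% were called, 1.32% lower and 0.963% higher. Selplg and Pecam1 were on the lower side with Selp, and Vwf, Icam1 and Vcam1 on the higher side. The 3 lines did not share 1 direction for 2 of the 6 tested members, Vcam1 and Vwf, as for 61.4% of all genes tested.

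Per length of the longest coding transcript, the order of the levels without doxycycline was Vcam1 (13.1 ± 0.242 RPKM, SD, n = 3), Icam1 (10.4 ± 1.28), Selp (6.19 ± 0.804) and Selplg (0.9596 ± 0.136). The ranges of these 4 genes over the 3 untreated libraries did not overlap each other. The ranges of Icam2 (0.222 ± 0.115 RPKM) and Pecam1 (0.21 ± 0.0596) did, and Vwf, Cdh5, Kdr and Sele were each at or below 0.0565 RPKM in every untreated library. With doxycycline Selp was at 1.69 ± 0.879 RPKM and again lay between Icam1 at 12.7 ± 0.22 RPKM and Selplg at 0.348 ± 0.212 RPKM. The treated libraries of Vcam1 (11.9 to 25.6 RPKM) spanned those of Icam1 (12.4 to 12.8 RPKM).

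The lines themselves were compared in a model with doxycycline and line, a contrast that had no part in choosing the genes. Of the 6 tested members 0 were called by edgeR (unadjusted p of 0.129 for Vcam1 to 0.631 for Icam1), and 0.0% of all genes were. Over all genes 667 of 14531 had an unadjusted p under 0.05 in this comparison and DESeq2 called 16.

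Genes near Selp on chromosome 1 were compared with it. F5, the gene of coagulation factor V, starts 1812 bases after the end of Selp with a mean of 2.72 CPM in the untreated and 2.5 CPM in the treated libraries (log2 fold change -0.10, edgeR adjusted p = 0.932). Of the neighbouring protein-coding genes compared here, 6 could be tested and 0 were called by edgeR. The log2 fold changes of the others were 0.12 (BC055324), 0.29 (Mettl18), -0.59 (Slc19a2), -0.35 (Ccdc181) and 0.20 (Blzf1).

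**Figure D3:**
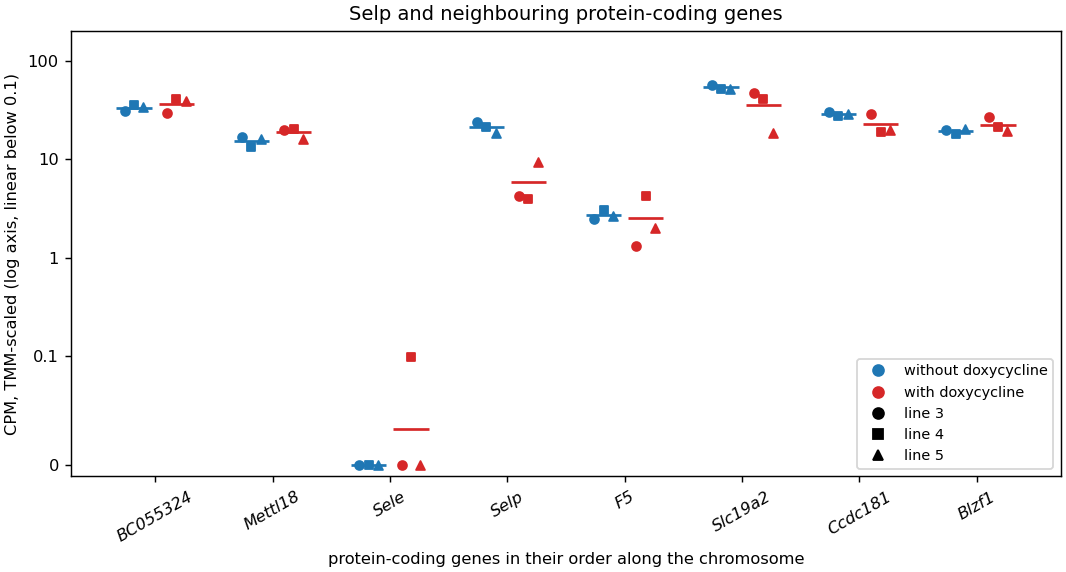
CPM in the 6 libraries of Selp and of neighbouring protein-coding genes, in chromosome order, on a log axis that is linear below 0.1. Points are libraries and bars group means. Selp is lower in every treated library than in any untreated one, Sele is at 0 in 5 of 6 libraries, and F5 overlaps between the groups.

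Further markers of endothelium were mostly low or absent. Of 25 further endothelial markers, 9 could be tested and 0 were called by edgeR or DESeq2. An unadjusted edgeR p under 0.05, which 16.3% of all genes tested had, was found for 1 (S1pr1, a lipid receptor, log2 fold change -0.91). The median log2 fold change of the 9 was 0.06, against 0.003 over all genes tested. The most abundant were the VEGF receptor Flt1 (24.2 ± 2.601 CPM without and 20.1 ± 6.58 CPM with doxycycline) and the endothelial surface protein Ecscr (14.1 ± 2.796 and 11.8 ± 3.75 CPM, SD, n = 3 each). Angpt2 (11.8 CPM without and 12.3 CPM with doxycycline), Egfl7 (10.7 and 11.6 CPM) and Ptprb (9.76 and 10.6 CPM) followed. Erg, Clec14a and She of the same list had 0 counts in every library, and 17 of the 25 averaged under 1 CPM. Summed over the 25, the level was 75.1 to 82.1 CPM without and 57.3 to 82.1 CPM with doxycycline.

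Platelets also store P-selectin, and of 14 platelet and megakaryocyte markers 5 could be tested. Itgb3, an integrin subunit that many other cells make, gave most of their summed level, which was 69.2 to 77.8 CPM without and 54.8 to 91.9 CPM with doxycycline. Itgb3 itself was at 69.2 ± 5.08 and 62.4 ± 19.1 CPM (edgeR adjusted p = 0.764). The chemokine Pf4 rose, from 0.104 ± 0.0821 to 1.34 ± 0.676 CPM (SD, n = 3 each; edgeR log2 change 3.65 with SE 0.59, adjusted p = 0.0109). Its adjusted p was 0.113 and 0.0549 without the untreated library of line 3 or 5, and 0.0568 without line 4. The platelet receptor gene Gp6 had 0 counts in every library and 11 of the 14 averaged under 1 CPM. In the treated lines 3, 4 and 5 Pf4 was at 0.87, 2.11 and 1.03 CPM and the macrophage marker Adgre1 at 8.88, 15.6 and 6.89 CPM, both highest in line 4.

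Among genes that make or carry selectin ligands, 0 of 6 tested carriers were called by edgeR. An unadjusted edgeR p under 0.05, which 16.3% of all genes tested had, was found for 3 of the 6 carriers. DESeq2 called 1 of them, Spn, the gene of the leukocyte sialomucin CD43 (log2 fold change -0.98 in edgeR, adjusted p = 0.141, and 0.0474 in DESeq2). Without the treated library of line 4 Spn also passed in edgeR (adjusted p = 0.0314), as it did with no filter on low counts (0.0203). The median over the 6 was -0.34. The most abundant carriers were Cd24a (439.5 ± 29.5 CPM without and 412.8 ± 101 CPM with doxycycline) and Lamp1 (304.6 ± 13.4 and 314.8 ± 86.6 CPM). Of 12 tested enzymes that build the sugar ligands, 0 were called by edgeR and 4 had an unadjusted edgeR p under 0.05, against the same 16.3%. DESeq2 called 1 of the 12, the N-acetylglucosaminyltransferase B3gnt3 (adjusted p = 0.0128), while the median was -0.09. Over all 14531 genes tested DESeq2 called 720. In edgeR B3gnt3 passed without the treated library of line 3 (0.011), without line 3 (0.0252) and with no filter (0.0047). C1galt1, which starts core O-glycans, was at 114.7 ± 17.4 and 102.4 ± 17.1 CPM, and the branching enzyme Gcnt1 at 91.0 ± 8.07 and 100.6 ± 33.3 CPM.

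Leukocyte integrins were called in both directions, with 2 of 7 tested higher and 2 lower (0.963% and 1.32% of all genes tested were). Itgal, the alpha chain of LFA-1, a receptor of ICAM molecules on lymphocytes, fell from 3.202 ± 0.998 to 0.516 ± 0.242 CPM (edgeR log2 change -2.59 with SE 0.40, adjusted p = 0.00837). Itgam and Itgax, alpha chains of myeloid integrins, rose by log2 fold changes of 3.89 (SE 0.58) and 3.66 (SE 0.52), with edgeR adjusted p of 0.00682 and 0.00503. Over the 3 libraries of a group Itgam had 7 counts without and 114 with doxycycline, and Itgax 11 and 149. Both passed the filter on low counts only through the treated libraries, so being tested already depended on their level there. The same held for Pf4, Nrp1 and Lmo2, at 8, 22 and 3 counts without and 110, 374 and 70 with doxycycline. Itgb7, which can pair with the VCAM-1 receptor chain Itga4, fell from 14.2 ± 2.29 to 6.61 ± 1.998 CPM (edgeR adjusted p = 0.0466). The Itgb7 call was lost with the line as a block (0.0509), with offsets for transcript length and GC content (0.0758), without any 1 untreated library (0.129, 0.263 and 0.163 for lines 3, 4 and 5), without the treated library of line 5 (0.0771) and without line 3, 4 or 5 (0.0504, 0.217 and 0.28). Without the untreated library of line 3 the adjusted p of Itgal, Itgam and Itgax were 0.0903, 0.0517 and 0.0733. Without that of line 4 they were 0.0591 and 0.0631 for Itgal and Itgam, and without both libraries of line 4 they were 0.0637 and 0.108. Of the exonic bases of Itgam, 68.7% are shared with the gene Gm49368 on the same strand, so its counts are uncertain.

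The levels of macrophage and T lymphocyte markers differed between the same groups. Of 13 tested macrophage markers 10 were called higher (0.963% of all genes tested were), and 5 without the untreated library of line 3. The sum over the 15 macrophage markers was 398.5 to 458.3 CPM without and 339.3 to 509.9 CPM with doxycycline, and most of it came from the mannose receptor Mrc1, at 382.7 CPM without and 256.3 CPM with doxycycline (edgeR adjusted p = 0.307). The other 14 macrophage markers summed to 44.7 to 49.9 CPM in the untreated and 129.3 to 261.7 CPM in the treated libraries, highest in line 4. Of the treated sums Lyz2 gave 91.4, 145.6 and 60.0 CPM in lines 3, 4 and 5. Cd14 (23.9 CPM without and 21.7 CPM with doxycycline) and Cd68 (9.73 and 10.7 CPM) were not called (edgeR adjusted p = 0.703 and 0.792). Cd163 and Marco were near absent in both groups, with 0 and 1 counts without doxycycline and 1 and 0 with it. Of 12 tested T lymphocyte markers 9 were called lower (1.32% of all genes tested were), and 4 without both libraries of line 4. Cd3d, Cd8b1 and Nkg7 had 0 counts with doxycycline. All 9 T lymphocyte markers called passed the filter on low counts only through the untreated libraries. Of the macrophage markers called, Adgre1, Itgam, Fcgr1, C1qa, C1qb, C1qc and Tyrobp passed it only through the treated ones. Being tested thus depended on the group where these genes were higher, so both shares of calls are a description. Among the T lymphocyte markers, Lck (log2 fold change -1.61, edgeR adjusted p = 0.105) and Trac (-0.82, 0.109) were lower and not called. Il7r lay on the other side, with 47 counts without and 159 with doxycycline (log2 fold change 1.71, edgeR adjusted p = 0.169). The part of these cells in the levels of the integrins, Pf4, Nrp1, Lmo2, Selplg and Selp was not tested.

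Of 9 tested VEGF ligands and receptors, 1 was called higher and 1 lower (0.963% and 1.32% of all genes tested were). Neuropilin Nrp1, a co-receptor for VEGF, went from 0.285 ± 0.128 to 4.63 ± 1.596 CPM (edgeR log2 change 4.01 with SE 0.41, adjusted p = 0.00102). Flt4, the receptor VEGFR3 of lymphatic vessels, went from 6.91 ± 1.19 to 2.62 ± 1.11 CPM (edgeR log2 change -1.41 with SE 0.30, adjusted p = 0.0427). The call of Flt4 was lost without any 1 untreated library (adjusted p = 0.186, 0.249 and 0.0983 for lines 3, 4 and 5), without the treated library of line 4 or 5 (0.0811 and 0.0985), without both libraries of line 4 or 5 (0.425 and 0.184) and with offsets for transcript length and GC content (0.123). The ligand Vegfa was at 277.2 ± 27.1 and 200.7 ± 17.1 CPM, with an edgeR adjusted p of 0.116, 0.0309 without the treated library of line 3 and 0.0405 by DESeq2.

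Among transcription factors that act on vascular genes, 1 of 9 tested was called higher and 2 lower (0.963% and 1.32% of all genes tested were). Klf2, a flow-induced factor of endothelium that is also made by resting lymphocytes, fell to nearly the same share in each line, with 20.3%, 21.0% and 21.1% remaining in lines 3, 4 and 5 (edgeR log2 change -2.26 with SE 0.22, adjusted p = 0.000779). Of Selp, 17.6%, 18.3% and 50.5% remained in these lines. Klf4 fell from 59.99 ± 3.76 to 31.3 ± 10.7 CPM (edgeR adjusted p = 0.046), a call lost without any 1 untreated library (0.197, 0.235 and 0.117 for lines 3, 4 and 5), without the treated library of line 4 or 5 (0.0911 and 0.113), without line 4 or 5 (0.425 and 0.216) and with the offsets (0.0829). Lmo2, a partner of factors of blood and endothelium, rose from 0.039 ± 0.0392 to 0.878 ± 0.459 CPM (edgeR adjusted p = 0.0156), or from 3 to 70 counts over 3 libraries. Its call was lost without any 1 untreated library (0.132, 0.0687 and 0.0604) and without line 3 or 4 (0.0586 and 0.146). Of 11 tested cytokine and NF-kappaB genes 1 was called (2.28% of all genes tested were). This was Tnfaip3, the NF-kappaB feedback inhibitor A20, which fell from 42.6 ± 5.42 to 17.8 ± 3.73 CPM. Its edgeR log2 change was -1.26 with SE 0.18 (adjusted p = 0.00503). The adjusted p was 0.0595 without the untreated library of line 3 and 0.0786 without line 4.

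Of 11 tested molecules of other adhesion families 1 was called (2.28% of all genes tested were). Bcam, a laminin-binding member of the immunoglobulin family, fell from 45.7 ± 6.85 to 28.3 ± 1.82 CPM (edgeR log2 change -0.69 with SE 0.15, adjusted p = 0.0373). It was not called with the line as a block (adjusted p = 0.0668), with the offsets (0.0595), without any 1 untreated library (0.052, 0.236 and 0.205 for lines 3, 4 and 5), without the treated library of line 4 or 5 (0.0503 and 0.101) or without line 4 or 5 (0.33 and 0.399). Medians of the adhesion, VEGF, transcription factor and cytokine lists were -0.13, -0.26, -0.18 and -0.21.

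**Figure D4:**
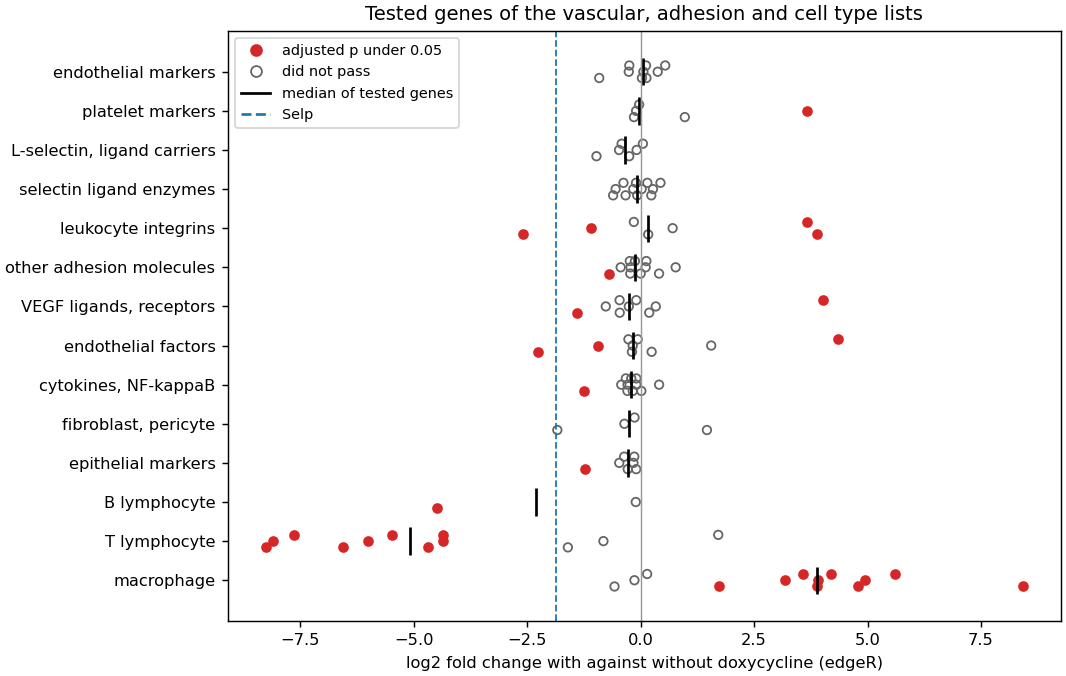
Fitted log2 fold change of each tested gene in the vascular, adhesion and cell type lists. Filled red points passed an edgeR adjusted p under 0.05, open points did not, black bars are medians and the dashed line marks Selp at -1.87. No endothelial marker passed, and the medians of the T lymphocyte (-5.08) and macrophage (3.89) lists lie on opposite sides of 0.

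Genes were ranked by how closely their level followed that of Selp over the 6 libraries, by Pearson's r of log2(CPM + 0.5) among 9822 named genes with a mean of at least 5 CPM. The 5 closest were Lbh (r = 0.998), Blcap (0.995), Tmem150c (0.995), Cul4a (0.994) and Ephx2 (0.993). Lbh went from 56.7 to 37.9 CPM and Ephx2 from 35.5 to 22.7 CPM, and none of the 5 passed the test (edgeR adjusted p = 0.0508 to 0.322). Of the genes compared, 214 (2.18%) had an r above 0.9. The libraries form 2 groups and Selp was chosen for its difference between them, and all points share the depth and scaling of their library, so these values are a description. Of the other members, Pecam1 (0.768) and Selplg (0.7) had a positive r of at least 0.7, and Cdh5 (0.181) and Icam2 (0.154) one near 0. The other 5 were negative, Icam1 (-0.791), Vwf (-0.729), Sele (-0.596), Kdr (-0.448) and Vcam1 (-0.316). Outside the members, r with Selp was 0.943 for Npm1, 0.911 for Klf2 and 0.868 for Mrc1.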

How the data were processed

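Libraries of total RNA from 3 KP lines without and with doxycycline were compared. The deposited values are whole-number counts per gene made by the authors, 1 file per library, without scaling. Tools named in the submitters' processing notes include HTSeq, STAR, CASAVA and Picard, with build mm10, and neither an annotation release nor a strand setting is given in the sources used here. Rows that name no gene held 43.7% to 47.7% of reads and were left out. A gene symbol, position and transcript length came from GENCODE M21 of the same build, for 48058 of 48526 identifiers.

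The test was the quasi-likelihood F test of edgeR 4.0.16 (R 4.3.3) after filterByExpr and TMM scaling, with Benjamini-Hochberg adjustment over all genes tested. Calls are at an adjusted p under 0.05. CPM uses TMM-scaled totals, RPKM divides it by the length of the longest coding transcript, and a floor of 3 counts is 0.0991 to 0.137 CPM. Ratios within a line have exact binomial intervals. DESeq2 1.42.0 and limma 3.58.1 were alternatives. The procedures were tested on simulated data. Replicates of a group were not duplicates (chi-square per degree of freedom 7.86 to 108).

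Equal line numbers pair libraries because they come from the same stable line. Deviations from group means correlated across genes at r = -0.00244, 0.0626 and 0.0272 within lines 3, 4 and 5, so the pairing rests on the labels. The genes and lists were chosen with earlier results of these data known. All 10 genes are described, and 1 gene outside them is not reported here. Of each list of related genes up to 3 called genes by smallest p are named, or else the 2 most abundant. Spn, S1pr1, B3gnt3, Itgb7, Vegfa and the other single marker genes of endothelial, blood, pericyte and epithelial cells were named after their values were seen.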

Additional observations from a re-analysis of the deposited data

How the results depend on the processing

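Every alternative kept the direction of all 6 tested members. Among the 15 other fits the log2 fold change of Selp was -2.49 to -1.60, with both extremes among those that leave out a library or line, and with the line as a block, called the replicate block here, it was -1.96. The number of members called besides Selp was 0 with RLE scaling, DESeq2, limma-voom, the block and the offsets, 2 (Selplg and Vcam1) with no filter on low counts, and 0 to 1 when a library or line was left out. For doxycycline against none, 332 genes were called over all, 1052 with no filter, 720 by DESeq2, 593 at an adjusted p under 0.10 and 62 to 1551 when a library or line was left out. The block gave 243 and, of the genes named here, ended the edgeR calls of Bcam (adjusted p = 0.0668) and Itgb7 (0.0509). For differences between lines 0 genes were called, 240 with no filter, 16 by DESeq2 and 0 to 330 when a library was left out. The cause of these changes was not tested. Of 89 tested genes in the lists other than members, macrophages and lymphocytes, 13 were called (2.28% of all genes were). With no filter 19 of 129 were called, with DESeq2 17, and from 2 without the untreated library of line 3 to 22 without the treated one. The 13 include Itgam, which is also on the macrophage list, and the leukocyte or platelet genes Itgal, Itgax and Pf4. The lists were chosen with earlier results known, so this share is a description and no test. Counts of 0 to 10 per library limit what Sele, Icam2, Cdh5 and Kdr can show. One library per line and condition leaves separate cultures of a line uncompared.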

Other observations

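The epithelial surface gene Epcam, looked up after its values were seen, had lines in the same order as Selp. It did not pass (log2 fold change -0.47, edgeR adjusted p = 0.409). Its ratio of the level with to that without doxycycline was 0.505 and 0.52 in lines 3 and 4 and 1.16 in line 5 (95% exact counting interval 1.08 to 1.26). Not all epithelial markers shared this order. Cldn7 did, and was also lower with doxycycline in lines 3 and 4 and higher in line 5. Krt8, Krt18 and Cdh1 were higher in line 3 and lower in lines 4 and 5, and Krt19 was lower in every line. Of 7 tested epithelial markers 1 was called (2.28% of all genes tested were). This was the tight junction gene Cldn4 (edgeR adjusted p = 0.0325), with ratios of 0.314, 0.314 and 0.696 in lines 3, 4 and 5, again highest in line 5. Its call was lost without any 1 untreated library (0.19, 0.135 and 0.0665), without the treated library of line 4 (0.0519), without line 3 or 4 (0.0942 and 0.268) and with offsets for transcript length and GC content (0.0741). Of 4 tested fibroblast and pericyte markers 0 were called by edgeR. An unadjusted edgeR p under 0.05, which 16.3% of all genes tested had, was found for 2, Rgs5 and Acta2. The pericyte gene Rgs5 had 162, 117 and 107 counts without and 11, 81 and 23 counts with doxycycline, with its smallest difference in line 4 as for Selplg (log2 fold change -1.84, edgeR adjusted p = 0.0916, and 0.00347 by DESeq2). Without the treated library of line 3 or 4, Rgs5 passed in edgeR (0.0334 and 0.00365), as it did without line 4 (0.0424). The smooth muscle actin gene Acta2 lay on the other side, with 17 counts without and 48 with doxycycline (log2 fold change 1.46, edgeR adjusted p = 0.131), and Col1a1 had 40 and 37. Of 2 tested B lymphocyte markers 1 was called (2.28% of all genes tested were). Ighm fell, from 57, 130 and 42 counts to 4, 6 and 0 (edgeR adjusted p = 0.00837), a call lost when the untreated line 3 (0.0595) or both libraries of line 4 (0.0825) were left out. Ighm passed the filter on low counts only through the untreated libraries. Cd79b, the other tested marker, had 41 counts without and 38 with doxycycline (edgeR adjusted p = 0.948), and Cd79a had 4 and 9.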
